A study of Mus musculus with 8 samples.

Results

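The hypoxia regulators and targets examined here are 10 genes, Hif1a, Epas1, Vegfa, Egln1, Egln3, Bnip3, Pdk1, Adm, Ankrd37 and P4ha1. They were read on every probe set that the platform annotation assigned to one of them alone, 22 of the 45101 probe sets on the array. A probe set is a group of short oligonucleotides that report 1 transcript region. The samples were the microdissected genital tubercle region, the outgrowth that later forms the penis or clitoris, from FVB/N mouse embryos at embryonic day 14 (Theiler stage 22). There were 4 males and 4 females, with 1 array for each unpooled sample, and the labels name no treatment or altered allele in either sex. The labels do not say whether embryos shared a litter, so the samples may not be independent. The p-values set the sex difference against the spread of these samples within each sex, part of which may be technical. The dissected region holds mesenchyme, epithelium, vessels, muscle precursors and nerves, and in such bulk RNA fewer cells of a type and less RNA per cell cannot be told apart.

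Cells sense oxygen through hypoxia-inducible factors. The alpha subunits HIF-1α (Hif1a) and HIF-2α (Epas1) are made continuously, hydroxylated by the oxygen-dependent prolyl hydroxylases PHD2 (Egln1) and PHD3 (Egln3), and then marked for destruction by the von Hippel-Lindau ubiquitin ligase. When oxygen is low they escape hydroxylation, pair with ARNT and switch on genes of vessel growth, glucose metabolism and matrix formation, and much of this control acts on the protein, which these arrays do not measure. HIF binds DNA at short sites with the core ACGTG or GCGTG.

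The DNA before the start sites of 4 of the genes is shown because the pathway acts through these letters and because Hif1a and Egln1 were among the genes that differed between the sexes. The sequences are from RefSeq (GRCm38.p6), which matched 9 of the 10 genes with 11 start sites. Each window is the 250 bases before a start on the gene's own strand, written 5′ to 3′, with every ACGTG or GCGTG on either strand in capitals (CACGT and CACGC when on the other strand; CACGTG is ACGTG on both strands at once). For Hif1a a stretch of 30 bases is given, since its window lies within the annotated span of the gene.
Bnip3 (chr7:138909507-138909756, minus strand): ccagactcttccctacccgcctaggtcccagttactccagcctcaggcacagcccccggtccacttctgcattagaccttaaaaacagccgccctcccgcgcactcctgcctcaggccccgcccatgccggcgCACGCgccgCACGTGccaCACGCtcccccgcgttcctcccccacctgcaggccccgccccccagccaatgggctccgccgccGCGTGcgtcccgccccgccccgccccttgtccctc
Egln1 (chr8:124949255-124949504, minus strand): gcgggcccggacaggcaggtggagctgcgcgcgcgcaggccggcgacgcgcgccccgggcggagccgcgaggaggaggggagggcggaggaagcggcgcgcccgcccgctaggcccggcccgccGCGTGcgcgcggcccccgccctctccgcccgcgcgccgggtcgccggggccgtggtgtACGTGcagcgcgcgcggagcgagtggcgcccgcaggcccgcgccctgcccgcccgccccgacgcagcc
Egln3 (chr12:54203875-54204124, minus strand): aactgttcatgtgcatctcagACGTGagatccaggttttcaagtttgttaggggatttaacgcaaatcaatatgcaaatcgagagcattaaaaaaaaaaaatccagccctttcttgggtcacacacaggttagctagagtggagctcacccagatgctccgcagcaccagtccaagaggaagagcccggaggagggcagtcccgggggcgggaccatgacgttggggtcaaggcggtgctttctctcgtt
Hif1a (chr12:73907720-73907749, plus strand): cacacagacaagCACGTGagcggggcagct
ACGTG was present in 7 of the 11 windows of these genes, beside 16.6% of all 32851 windows of the same length, and GCGTG was also present in 7 of the 11, beside 28.2% of all windows. The windows of these genes ranged from 38.4% to 86.0% in G and C bases, and CG-containing letters are more frequent in GC-rich DNA. A match is a description of the sequence, not evidence of binding.

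The arrays were checked before the genes were compared. Hoxd13 and Isl1, which mark the tubercle mesenchyme, were bright in both sexes (at least 28404 on each array for Hoxd13 and 25445 for Isl1), as was Shh of the urethral epithelium (at least 16478). On the log2 scale described below these genes were lower in males, by -0.29 for Hoxd13, -0.33 for Isl1 and -0.39 for Shh. Not every mesenchyme marker was bright: Hoxa13 read 145.8 to 252.1. The Y-linked gene Eif2s3y read 4109 to 6136 on male arrays and 31.1 to 70.8 on female arrays. Xist, the RNA of the inactive X chromosome, read 16036 on the array of male replicate 3 against 230.0 to 619.6 on the other male arrays and 32465 to 35816 on the female arrays, so results are also given without male replicate 3. Control probe sets and the array median moved with sex: the 18S ribosomal RNA control read 8332 to 18926 in females and 21050 to 33634 in males, the array median 184.4 to 206.6 and 211.7 to 249.4, and the 3′ control probe set of Gapdh, itself a glycolytic enzyme, 16030 to 17704 and 9293 to 12000 (p = 0.0286 for each in a two-sided exact permutation test, the least that 4 against 4 arrays can give, 0.0477 after adjustment over 5 measures). Male replicates 1 and 3 had the highest 18S values and the lowest ratios of 3′ to 5′ signal of the beta-actin control (5.3 and 5.6, beside 7.94 and 9.04 in male replicates 2 and 4). Each difference below is the male mean minus the female mean of log2(intensity + 16), with its standard error (SE) from limma; the added 16 makes it too small for dim probe sets. A probe set is called when its limma p-value, adjusted over all 22519 probe sets tested, is below 0.05.

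Among the hypoxia genes, Hif1a was higher in males on its 3 tested probe sets, Egln1 and Vegfa were each lower on 1 of 2, and the other 7 genes had no called probe set. Of the 22 probe sets 16 were bright enough to be tested, at least 1 for each gene, and 6 were too dim. In all 5 of the 16 were called, 3 higher in males (all of Hif1a) and 2 higher in females (Vegfa and Egln1). Over the whole array 40.5% of tested probe sets were called, 18.7% with the males higher and 21.9% with the females higher, so the share among the hypoxia genes, 31.2%, was not above the background. The median difference of the 16 was -0.08, beside -0.01 over all tested probe sets. The same 5 were the ones whose male and female ranges did not overlap, and 37.1% of all tested probe sets were of that kind, 15.8% with males above females and 21.2% with females above males. Without male replicate 3 the count was 4 of 17 tested, beside 33.5% of all probe sets, and without male replicates 1 and 3 it was also 4 of 17, beside 35.4%. Of all calls on the array 46.1% were higher in males, and this share became 23.8% when each array was centred on its own median, a scaling that moved the median difference of all probe sets from -0.01 to -0.22. With that centring 8 of the 16 were called, 2 in favour of males and 6 of females, beside 44.2% of all probe sets. With the 18S level as a covariate in limma 0 of the 16 were called (3 at an unadjusted p under 0.05), 1.84% of all probe sets were, and 18S and sex cannot be told apart since their ranges do not overlap.

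**Figure D1:**
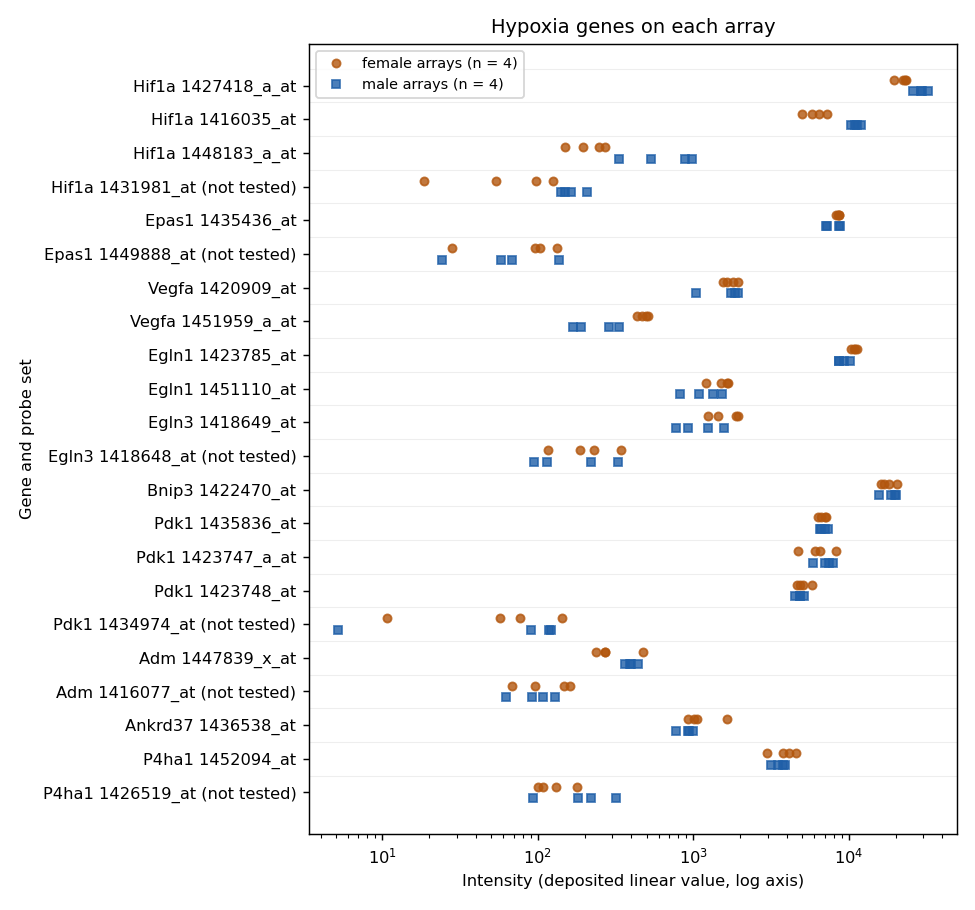
Intensity of each of the 22 probe sets on each array, on a log axis, with circles for the 4 female and squares for the 4 male arrays. The 4 probe sets of Hif1a, the dimmest of them not tested, have every male array above every female array, while most other rows overlap.

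Hif1a (chr12:73901324-73947554 in GRCm38.p6), the oxygen-regulated subunit of HIF-1, was higher in males on all 3 of its tested probe sets. On the brightest, 1427418_a_at, the females read 23084, 22182, 23448 and 19408 and the males 25837, 29220, 32310 and 29649. The lowest male array was above the highest female array, and the difference was 0.41 ± 0.08 (SE, limma adjusted p = 0.00229), from 22030 ± 1830 (SD, n = 4) in females to 29254 ± 2660 in males. On 1416035_at the females read 5016, 5760, 6456 and 7285 and the males 10295, 10904, 12044 and 11351. The sexes were again apart, with a difference of 0.87 ± 0.11 (limma adjusted p = 0.000195), a male mean 1.82 times the female mean.

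The dimmer Hif1a probe sets had the same direction and a wider spread. On 1448183_a_at the females read 149.9, 271.4, 196.5 and 248.4 and the males 984.0, 333.1, 878.5 and 534.6, a difference of 1.50 ± 0.32 (limma adjusted p = 0.00314). The 2 highest values were those of male replicates 1 and 3, the arrays with the highest 18S control, and without them the difference was 0.95 (limma adjusted p = 0.0324). The remaining probe set, 1431981_at, was too dim to be tested: the females read 124.8, 18.6, 97.1 and 53.7 and the males 163.6, 140.7, 149.3 and 208.3, again with no overlap between the sexes. In the fit without a filter it differed by 1.19 ± 0.42 and was not called (limma adjusted p = 0.0747). The median difference of all probe sets in that fit was 0.08. Without male replicate 3 the 3 tested probe sets differed by 0.36, 0.83 and 1.34, and all stayed called (limma adjusted p = 0.00843, 0.00108 and 0.0125).

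The fitted Hif1a differences ranged from 0.41 to 1.50 between probe sets, and the scaling moved that of the brightest. Within an array, the log2 ratio of 1427418_a_at to 1416035_at was 1.41 to 2.20 in females and 1.33 to 1.42 in males, and an exact permutation test of the sex difference in this ratio did not pass (two-sided p = 0.0857; 0.171 adjusted over 12 ratios), nor did those of the other 2 pairs of Hif1a probe sets (adjusted p = 0.171 and 0.308). Median centring reduced the difference on 1427418_a_at to 0.20 and ended its call (limma adjusted p = 0.188), while the other 2 tested probe sets kept theirs (0.66 and 1.29). With the 18S covariate the differences were 0.46, 0.70 and 0.46 from the brightest to the dimmest, and none was called (limma adjusted p = 0.115, 0.0827 and 0.598).

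**Figure D2:**
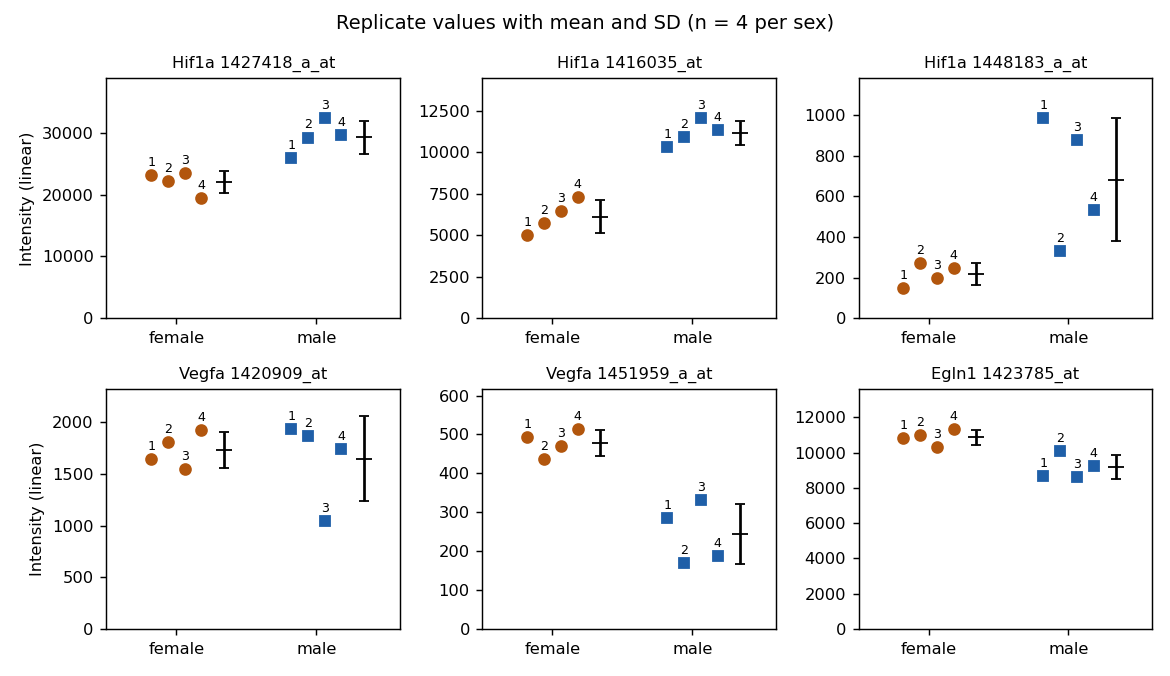
Intensity on a linear axis from 0 for the 3 tested Hif1a probe sets, both Vegfa probe sets and the brightest Egln1 probe set. Points are arrays numbered by replicate, and bars are the mean with its SD (n = 4 per sex); the sexes are apart in each panel except that of Vegfa 1420909_at, where male replicate 3 lies lowest at 1045.

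Epas1 (chr17:86753864-86833410), the alpha subunit of HIF-2 and abundant in vessels, did not pass. On 1435436_at the females read 8627, 8215, 8613 and 8501 and the males 7192, 8592, 8803 and 7184. The ranges overlapped, and the difference was -0.10 with a 95% interval from -0.30 to 0.10 (limma adjusted p = 0.4). Its other probe set, 1449888_at, lay below the filter at 24.1 to 136.7 over the 8 arrays. Under median centring the brighter probe set was called lower in males (-0.31, limma adjusted p = 0.0474).

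Hif1a was also set against other members as a ratio within each array, which multiplying a whole array by a factor barely moves. The log2 ratio of Hif1a 1427418_a_at to Epas1 1435436_at was 1.19 to 1.44 in females and 1.76 to 2.04 in males. The ratio to Egln1 1423785_at was 0.78 to 1.18 and 1.53 to 1.90, the ratio to Bnip3 was -0.07 to 0.48 and 0.56 to 0.79, and the ratio to Pdk1 1435836_at was 1.47 to 1.83 and 1.96 to 2.20. For each of these 4 ratios, chosen after the values were seen, every male array lay above every female array (p = 0.0286 in a two-sided exact permutation test, the least that 4 against 4 arrays can give, 0.0858 after adjustment over 12 ratios). None of the 12 ratios passed after adjustment, and Hif1a was already known to stand apart when these 4 were chosen.

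Of the hydroxylases that inactivate HIF, 1 probe set of Egln1 passed. The hydroxylases Egln2 (0.17 ± 0.17) and Hif1an (0.12 ± 0.14), read on the pathway list, did not pass and had the opposite sign (limma adjusted p = 0.444 and 0.494). Egln1 (chr8:124908587-124949254), which encodes PHD2, the main oxygen sensor of most cells, read 10826, 10994, 10327 and 11334 in females and 8695, 10108, 8625 and 9251 in males on 1423785_at. The highest male value was just below the lowest female value, and the difference was -0.25 ± 0.08 (limma adjusted p = 0.0278). This call rested on single arrays: the limma adjusted p was 0.058 without female replicate 1, 0.0649 without female replicate 2, 0.0545 without female replicate 4, 0.0697 without male replicate 3 and 0.0512 without male replicate 4. On the second probe set, 1451110_at, the females read 1514, 1664, 1636 and 1203 and the males 1095, 822.2, 1532 and 1335. These ranges overlapped and the difference did not pass (-0.35 ± 0.19, limma adjusted p = 0.165). It was called under median centring (-0.57, limma adjusted p = 0.0283) and with array weights (-0.48, limma adjusted p = 0.0499), and it was -0.19 without male replicate 2.

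Egln3 (chr12:54178981-54203874), which encodes PHD3 and is itself a HIF target, read 1892, 1242, 1431 and 1947 in females and 770.6, 926.5, 1246 and 1582 in males on 1418649_at. The ranges overlapped and the difference of -0.55 ± 0.23 missed the threshold (95% interval -1.04 to -0.06, limma adjusted p = 0.07). It was called without female replicate 2 (-0.67, limma adjusted p = 0.047), without male replicate 4 (-0.72, limma adjusted p = 0.0197) and under median centring (-0.76, limma adjusted p = 0.0175), and with the 18S covariate it was -0.10. The other Egln3 probe set, 1418648_at, was too dim to be tested (218.0 ± 95.1 in females, 188.4 ± 107 in males).

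Vegfa (chr17:46016993-46032377), the growth factor that directs vessel sprouting, differed on 1 of its probe sets. On 1451959_a_at the females read 492.9, 436.0, 469.7 and 513.7 and the males 285.4, 169.2, 331.9 and 188.5. All male arrays were below all female arrays, and the difference was -0.97 ± 0.23 (limma adjusted p = 0.00548). Here too male replicates 1 and 3 were the higher males; without male replicate 3 the difference was -1.13 (limma adjusted p = 0.00361) and without both it was -1.34 (limma adjusted p = 0.00103).

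The brighter Vegfa probe set, 1420909_at, did not pass. It read 1646, 1810, 1543 and 1928 in females and 1934, 1866, 1045 and 1745 in males, a difference of -0.11 with a 95% interval from -0.52 to 0.30 (limma adjusted p = 0.681). Male replicate 3 was the one low value, and without it the difference was 0.10 (limma adjusted p = 0.607). The log2 ratio of the 2 Vegfa probe sets within an array was 1.68 to 2.01 in females and 2.69, 3.34, 1.61 and 3.11 in males. The male values were higher except for replicate 3, and the sex difference of 0.87 in this ratio did not pass (exact permutation test, two-sided, p = 0.143; 0.214 adjusted over 12 ratios). Of the 4934 genes with more than 1 tested probe set, 54.2% likewise had both a called and an uncalled one.

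**Figure D3:**
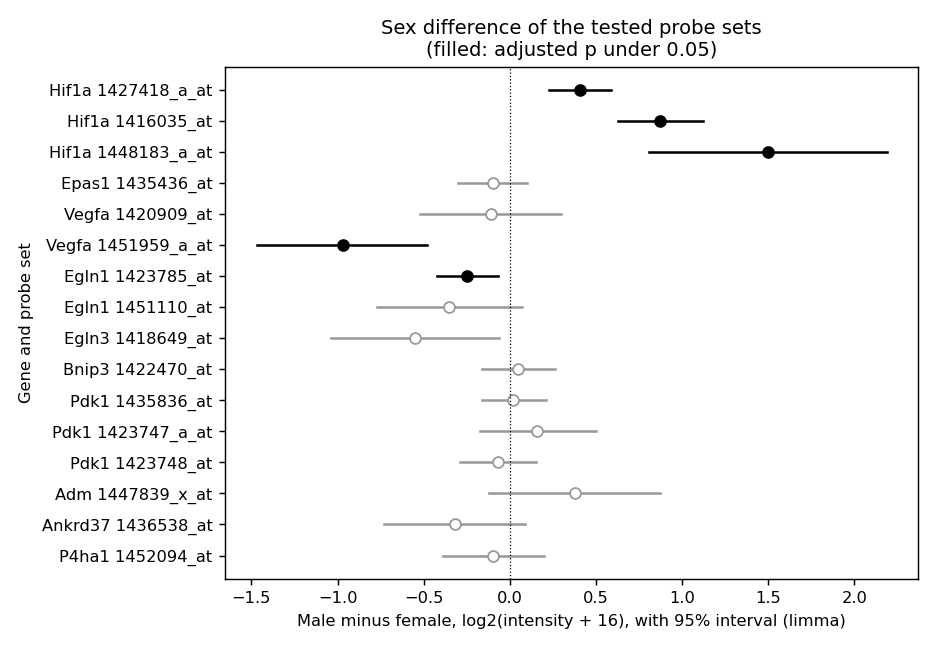
Male minus female difference on the log2 scale with its 95% interval from limma for the 16 tested probe sets, filled where the adjusted p was below 0.05. The 3 Hif1a points lie right of 0 at 0.41, 0.87 and 1.50, and the other filled points are Vegfa at -0.97 and Egln1 at -0.25.

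Bnip3 and Pdk1, targets that adapt mitochondria to low oxygen, did not pass on any probe set. Bnip3 (chr7:138890836-138909506), a mitochondrial protein that promotes mitophagy, read 18240, 16088, 16774 and 20441 in females and 15648, 19809, 18644 and 20008 in males. The sexes overlapped almost fully, with a difference of 0.05 (95% interval -0.16 to 0.26, limma adjusted p = 0.707) that became -0.16 under median centring. Pdk1 (chr2:71873215-71903858), a kinase that inhibits pyruvate dehydrogenase, had 3 tested probe sets with differences of 0.02, 0.16 and -0.07. The positive ones turned negative under median centring (-0.19 and -0.05), and the limma adjusted p-values were 0.839, 0.426 and 0.608. On the brightest, 1435836_at, the females read 7083, 6354, 6587 and 6988 and the males 6646, 6508, 7022 and 7306, so the highest of the 8 values was 1.15 times the lowest, the narrowest range among the 22 probe sets. The 95% interval there was -0.16 to 0.21. The dim probe set 1434974_at, at 5.21 to 143.7, was not tested.

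The secreted peptide, the ankyrin repeat gene and the matrix enzyme also did not pass. Adm (chr7:110627657-110629820) encodes adrenomedullin, a peptide that widens vessels. On 1447839_x_at, whose suffix marks probes that can cross-hybridize, it read 270.2, 272.2, 238.2 and 477.3 in females and 395.4, 391.4, 443.6 and 365.4 in males. Female replicate 4 lay above all males while the other females lay below them, and the difference was 0.38 ± 0.23 (limma adjusted p = 0.202). Without female replicate 4 it was called (0.59, limma adjusted p = 0.0341). The other Adm probe set, 1416077_at, was too dim to be tested (118.1 ± 43.5 in females, 97.3 ± 27.8 in males) and had the opposite sign.

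Ankrd37 (chr8:45996908-46000414), a HIF-1 target that encodes an ankyrin repeat protein, read 1013, 1062, 923.0 and 1650 in females and 929.2, 769.9, 933.3 and 997.3 in males. The ranges overlapped, female replicate 4 again lay highest, and the difference was -0.32 ± 0.19 (95% interval -0.73 to 0.09, limma adjusted p = 0.194). It was -0.14 without female replicate 4, and median centring called it (-0.53, limma adjusted p = 0.0288). P4ha1 (chr10:59323197-59373304), a catalytic subunit of the enzyme that hydroxylates proline in collagen, read 2980, 3771, 4132 and 4544 in females and 3915, 3494, 3769 and 3140 in males on 1452094_at. Its difference was -0.10 (95% interval -0.39 to 0.20, limma adjusted p = 0.608), and its dim probe set 1426519_at read 129.1 ± 35.9 and 202.7 ± 92.7.

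Other genes of the pathway were counted from 3 lists, each gene by its brightest tested probe set. Over all 11489 genes tested in that way 42.2% were called, 14.0% with the males higher and 28.2% with the females higher, and the median difference was -0.12. Of 15 tested HIF regulators 0 were called higher in males by limma (3 at an unadjusted p under 0.05), 3 were called lower, and the median difference was 0.12. Elob, the elongin B subunit of the von Hippel-Lindau ligase, fell from 6902 ± 653 in females to 2778 ± 639 in males (-1.34 ± 0.16, limma adjusted p = 0.000139). Arnt2, a partner subunit of HIF, fell from 4907 ± 644 to 2562 ± 151 (-0.93 ± 0.12), while another Arnt2 probe set was called higher in males. Siah1a, a ubiquitin ligase that acts on hydroxylases, differed by -0.39 ± 0.11, although its other 2 tested probe sets were called with the males higher, and the call was lost without female replicate 3 (limma adjusted p = 0.0511). Arnt, the usual partner of HIF-1α, differed by -0.12 ± 0.12 (limma adjusted p = 0.429) while 1 of its other probe sets was called with the males higher, and Vhl differed by 0.09 ± 0.09 (limma adjusted p = 0.444). The count of regulators higher in males was not stable: it was 3 without male replicate 1, 1 without male replicate 2, 1 without female replicate 4 and 5 with the mean of the probe sets of each gene.

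In the list of glycolysis and glucose transport, 11 of 17 tested genes were lower in males by limma, 0 were higher (also 0 at an unadjusted p under 0.05) and 6 did not pass. The median difference was -0.40. Pfkl, a phosphofructokinase, fell from 1284 ± 73.0 in females to 566.9 ± 106 in males (-1.17 ± 0.16), Pkm, pyruvate kinase, from 4836 ± 290 to 2401 ± 335 (-1.01 ± 0.12), and Tpi1, triosephosphate isomerase, from 14426 ± 1360 to 7193 ± 706 (limma adjusted p = 5.7e-05). Hk2, a hexokinase that HIF induces, fell by 0.60 (-0.60 ± 0.13). Each of these 4 had every male array below every female array, as did 21.2% of all tested probe sets. They were named for their large differences, so this separation adds no support. A second tested probe set of Pfkl had the same sign but was not called. The glucose transporter Slc2a1 (-0.04 ± 0.15) and Pgk1 (0.00 ± 0.06), both classic HIF targets, did not pass (limma adjusted p = 0.841 and 0.969). Leaving out any 1 array gave 9 to 13 genes lower in males, median centring gave 12 and the 18S covariate gave 1, Tpi1, with 7 at an unadjusted p under 0.05. With that covariate the differences were -1.09 for Pfkl, -0.93 for Pkm, -0.74 for Tpi1 and -0.78 for Hk2. In none of these fits was a gene of the list called higher in males.

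Among 27 tested other HIF targets, 4 were higher in males, 7 lower and 16 did not pass, with a median of 0.09. Plod2, a lysyl hydroxylase of collagen, rose from 760.2 ± 274 to 1925 ± 778 (1.31 ± 0.29), while Plod1 of the same family differed by -0.62 ± 0.21. The 2 highest Plod2 values, 3007 and 1952, were those of male replicates 1 and 3. Over 19 alternatives Plod2 differed by 0.37 to 1.5 and was called in 18 (highest limma adjusted p = 0.645). Higd1a, a mitochondrial protein, differed by 0.39 ± 0.11, while a second Higd1a probe set was called lower in males, the transferrin receptor Tfrc by 0.30 ± 0.08 and Insig2, a regulator of sterol synthesis, by 0.44 ± 0.15. The chemokine Cxcl12 fell from 8891 ± 1560 to 5131 ± 567 (-0.78 ± 0.13), the cytokine Mif by 0.59 and Ddit4, an inhibitor of mTOR, by 0.51 on the log2 scale. Plod2, Tfrc and Cxcl12 each had a second tested probe set with the same sign that was not called. The calls of Insig2 and Plod1 were lost without any 1 of 6 arrays, for Insig2 female replicates 2, 3 and 4 and male replicates 2, 3 and 4 (highest limma adjusted p = 0.088, without female replicate 3) and for Plod1 female replicates 1, 3 and 4 and male replicates 2, 3 and 4 (highest 0.0837, without male replicate 2). For Insig2 this concerns its brightest probe set, and with all arrays each of its 3 tested probe sets was called higher in males. Under median centring only Plod2 of the list was called higher in males (1.10), Higd1a, Tfrc and Insig2 were not called (0.18, 0.08 and 0.23), and 9 genes were lower.

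**Figure D4:**
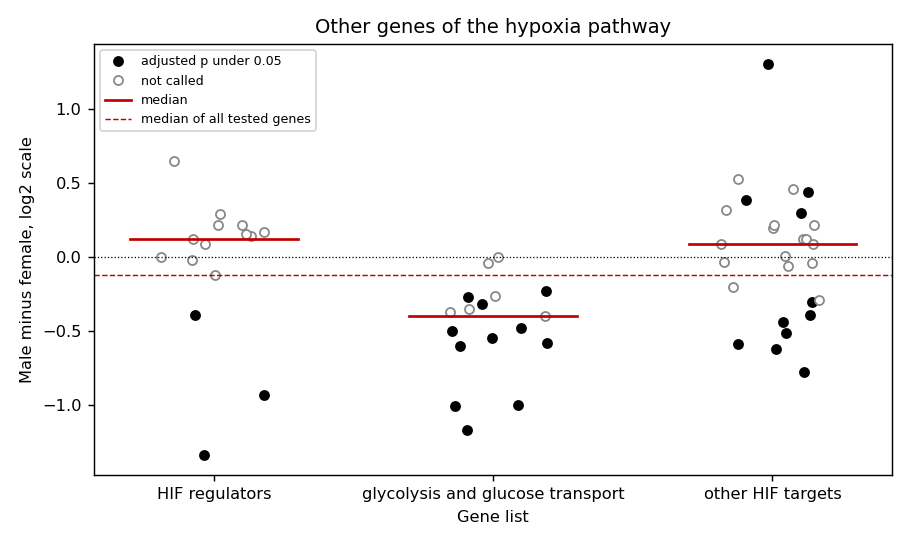
Male minus female difference on the log2 scale of each tested gene in the 3 pathway lists, filled where the adjusted p was below 0.05, with the list median as a solid line and the median of all tested genes, -0.12, as a dashed line. The glycolysis genes lie at or below 0 with a median of -0.40, while the other 2 lists spread to both sides.

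Markers of cell types that the dissection can hold were also called in both directions, and their part in the results above was not tested. Over all tested genes 42.2% were called, 14.0% with the males higher and 28.2% with the females higher. The marker lists, each with few genes, ran from 45.5% called (tubercle mesenchyme) to 83.3% (neurons). Summed intensities given here include every listed gene with a probe set of its own, also those too dim to be tested. Of 13 tested endothelial markers, 3 were higher in males and 5 lower. The endothelial sum was 23208 to 26856 in females and 21593 to 25978 in males. Kdr, the receptor of VEGF-A, rose from 1568 ± 292 to 3558 ± 875 (1.16 ± 0.19), and its 2 highest values were those of male replicates 1 and 3. Pecam1 (0.66) and Tek (0.93) were also called higher in males. Those called lower were Cdh5 (-0.57), Eng (-0.84), Sox18 (-0.49), Erg (-0.74) and Plvap (-0.77). Skeletal muscle markers were higher in males for 7 of 10 tested genes and lower for 0 by limma (also 0 at an unadjusted p under 0.05; summed 7239 to 17181 in females and 20183 to 31326 in males), and cartilage condensation markers for 3 of 6 and 0, also 0 unadjusted (6080 to 6664 and 8947 to 14932). Of 10 epithelial markers 1 was higher and 6 were lower in males (70057 to 82999 and 64505 to 72678), and of 6 erythroid markers 1 was higher and 2 were lower (40626 to 43354 and 44857 to 54638). Most of the erythroid sum is the globin Hbb-y (39050 ± 1270 in females, 46400 ± 4660 in males), while the globins Hbb-bh1 and Hba-x differed by -1.04 and -1.09. Neuronal markers had 4 higher and 1 lower of 6 (9197 to 10633 and 11942 to 16163), macrophage markers 2 and 1 of 5 (4864 to 5727 and 6710 to 7827), and tubercle mesenchyme markers 0 (1 unadjusted) and 5 of 11 (166500 to 176019 and 154431 to 170149).

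**Figure D5:**
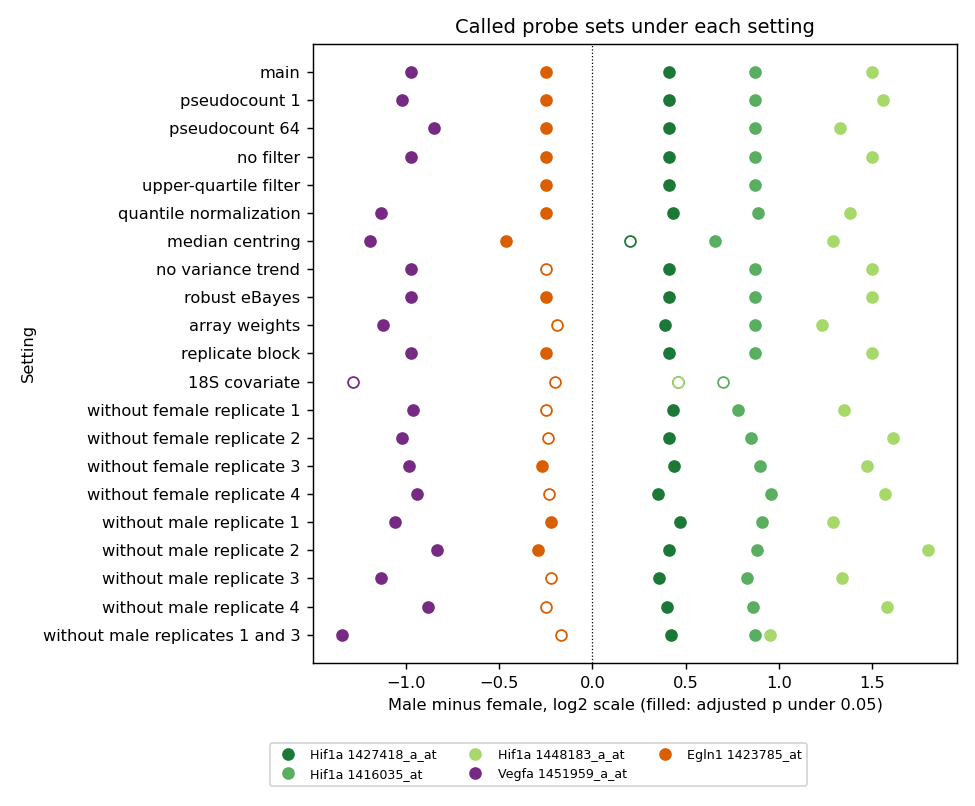
Male minus female difference on the log2 scale of the 5 called probe sets in the reported fit (top row) and under each alternative, filled where the adjusted p was below 0.05. Each probe set keeps its side of 0 throughout, all points are open with the 18S covariate, and Egln1 is the one most often open.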

How the data were processed

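The authors deposited 1 linear intensity per probe set and array. GCOS is the software named, per the submitters' processing notes, and for its version nothing is given in the sources used here. Per the labels, total RNA came off silica columns, went through a double amplification with biotin labelling, and was read on Affymetrix MOE430 arrays. The deposited columns share a 2% trimmed mean of 1500 and were not normalized again. The 64 control probe sets were left out, values were taken as log2(value + 16), and the 22519 probe sets whose average over the 8 arrays reached the median of such averages (7.77) were tested for sex with limma (version 3.58.1, R version 4.3.3, trended eBayes), with Benjamini-Hochberg adjustment over all of them. Intervals are limma's moderated 95% intervals. The number of arrays limits the precision. The method was tested on simulated data. Genes were named from the platform annotation, with positions from RefSeq (GRCm38.p6); where probes lie in a transcript was not analysed here.

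The genes, lists and alternatives were chosen with earlier results of these data known. Named beyond the 10 genes were up to 4 called genes per direction of each pathway list with the largest differences, and genes shown as checks. Arnt, Vhl, Eloc, Egln2, Hif1an, Hbb-bh1, Hba-x, Slc2a1, Pgk1, Kdr and the other called endothelial markers were chosen after their values were seen. Of the genes listed, those with no probe set of their own in the annotation were not analysed here. Leaving out male replicates 1 and 3 together was added after seeing the data.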

Additional observations from a re-analysis of the deposited data

Results flagged for a closer look

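In 44 groups of 4 arrays (22 probe sets in each sex), 2 held an array far from the other 3. This share is close to the 1 in 20 that chance gives. Male replicate 3 read 1045 on Vegfa 1420909_at against 1745 to 1934 on the other male arrays, and it is also the male array with Xist signal. Male replicate 4 read 5.21 on Pdk1 1434974_at against 89.8 to 121.4 on the other male arrays, on a probe set too dim to be tested.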

How the results depend on the processing

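Over 20 alternatives the 5 called probe sets kept their direction wherever they could be fitted. Hif1a 1416035_at was called in 19 of 20, Hif1a 1427418_a_at in 18 of 20, Hif1a 1448183_a_at and Vegfa 1451959_a_at in 18 of 19, and Egln1 1423785_at in 11 of 20. Directions reversed only for probe sets that were not called: Vegfa 1420909_at was 0.04 with the 18S covariate, 0.06 without male replicates 1 and 3, and -0.20 to 0.10 when single arrays were left out; Bnip3 was -0.16, Pdk1 1435836_at -0.19 and Pdk1 1423747_a_at -0.05 under median centring; and Pdk1 1435836_at was -0.01 to 0.05 when single arrays were left out.

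The count of called probe sets was 3 at the upper-quartile filter (12 tested), 8 under median centring and 0 with the 18S covariate, beside 52.3%, 44.2% and 1.84% of all probe sets. Of those higher in males it was 0 with the covariate. Of those higher in females it was 1 at the upper-quartile filter, 6 under median centring, 1 without a variance trend, 0 with the covariate, 1 without male replicates 1 and 3, and 1 to 2 when single arrays were left out (1 without female replicate 1, female replicate 4 or male replicate 3). For HIF regulators, the count higher in males was 1 with no filter, the upper-quartile filter or quantile normalization, 2 with array weights, 2 without male replicates 1 and 3, 5 with the mean of the probe sets, and 0 to 3 when single arrays were left out; the count higher in females was 0 with the covariate and 1 with the mean of the probe sets. With the covariate 1 glycolysis gene was higher in females, and 0 other targets were called in either direction by limma (2 higher and 2 lower in males at an unadjusted p under 0.05); under median centring 1 other target was higher in males. The upper-quartile filter tests fewer probe sets; for the others the cause was not tested.

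Same-numbered males and females did not deviate together (correlations -0.126 to 0.0391), so no pairing by number was seen. So few arrays cannot exclude shared litters. With the replicate block 5 of the 16 probe sets were again called, and Hif1a 1416035_at differed by 0.87 (limma adjusted p = 0.00065). The array number and the dimness of 6 probe sets limit what could be detected.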
